A study of Mus musculus with 10 samples.

Results

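The genes of the mitochondrial genome were taken as every row of the gene count table whose gene name starts with mt- and whose chromosome is given as MT. The rule found 37 rows among the 56748 genes of the table, namely 13 mRNA rows, 2 rRNA rows and 22 tRNA rows. On the genome 28 of these rows lie on the plus strand. The other 9 lie on the minus strand, and they are mt-Nd6 and 8 tRNA rows. The rule uses names and a chromosome only, but the group was proposed with the difference between the genotypes already known. For that reason the differences below are given as a description, with the result of the fit over all genes and no p-value for any single mitochondrial row.

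The knockout group, called HKO here, held 5 mouse liver libraries with the genotype ACSS2-HKO, a deletion of Acss2 that the study describes as specific to liver cells. The flox group held 5 liver libraries with the genotype ACSS2-flox. Both groups had eaten the same high-fat, high-fructose food over 4 months, so no library came from a liver on ordinary chow. Acss2 encodes a nuclear and cytosolic acetyl-CoA synthetase that uses acetate, and the study asked about its role in metabolic dysfunction-associated steatohepatitis, a fatty liver disease with inflammation. The sources used here do not give the Cre driver that deleted Acss2, the sex or age of the mice, or whether each library came from a separate animal.

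The mitochondrial genome is a small circle that is transcribed from both strands into long precursor RNAs. Its mRNAs encode subunits of respiratory complexes I, III and IV and of the ATP synthase, its rRNAs build the mitochondrial ribosome, and its tRNAs serve translation inside the organelle. Most mRNAs and rRNAs are flanked by tRNAs, and cutting at the tRNA ends releases the mature RNAs, so that a tRNA row can also collect reads from precursors that have not been cut. Liver cells are rich in mitochondria and hold many copies of this genome.

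The sequences of the 6 tRNA rows that the results turn on are shown first, because their position between abundant mRNAs matters for reading their counts. They were read from GENCODE M21 transcripts on GRCm38, run 5′ to 3′ along each gene's own strand, and carry the anticodon in capitals. mt-Ti, the isoleucine tRNA, lies at MT:3706-3774 on the plus strand. mt-Tq, the glutamine tRNA, lies at MT:3772-3842 on the minus strand, and mt-Tm, the methionine tRNA, at MT:3845-3913 on the plus strand. These 3 genes fill the space between mt-Nd1 and mt-Nd2. mt-Tc, the cysteine tRNA, lies at MT:5192-5257 and mt-Ty, the tyrosine tRNA, at MT:5260-5326, both on the minus strand just before mt-Co1. mt-Tp, the proline tRNA, lies at MT:15356-15422 on the minus strand, beyond mt-Cytb and next to the control region.
mt-Ti: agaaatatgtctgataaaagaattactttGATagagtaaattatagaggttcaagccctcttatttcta
mt-Tq: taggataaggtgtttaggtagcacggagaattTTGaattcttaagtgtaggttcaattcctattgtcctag
mt-Tm: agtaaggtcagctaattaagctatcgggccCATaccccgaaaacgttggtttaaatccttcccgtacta
mt-Tc: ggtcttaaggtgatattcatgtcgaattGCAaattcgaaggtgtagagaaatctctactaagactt
mt-Ty: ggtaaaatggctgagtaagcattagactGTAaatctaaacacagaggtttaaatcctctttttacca
mt-Tp: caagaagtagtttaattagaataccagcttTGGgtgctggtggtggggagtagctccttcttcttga
In each of the 6 genes the anticodon printed in capitals is flanked by 5 base pairs of the anticodon stem.

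Total counts were 15413648 to 19275358 in HKO libraries and 16933436 to 17196774 in flox libraries, so that 3 counts, the limit a count of 0 allows, were worth 0.156 to 0.195 CPM (counts scaled to a common library total). Acss2 itself had 52.8, 59.0, 43.8, 40.2 and 51.4 CPM in HKO libraries, against 73.2, 86.9, 56.5, 128.8 and 58.6 CPM in flox libraries. The fitted difference, HKO over flox, was -0.71 ± 0.21 on the log2 scale (SE). Its edgeR adjusted p was 0.0858, and lay between 0.0415 and 0.203 over the alternatives tried. Without flox replicate 4 the difference was -0.47. All 13 hepatocyte markers were detected, with a summed level of 136995 to 175611 CPM in HKO libraries and 107097 to 164223 CPM in flox libraries. By edgeR 0 of these hepatocyte markers were called, beside 3.99% of all tested genes. At an unadjusted p under 0.05 there were 5, beside 16.9% of all tested genes. DESeq2 called 3, beside 6.14% of the genes it gave an adjusted p. Of the 13 values 12 were positive, with a median of 0.25 on the log2 scale, and 9 were positive when scaled by library totals. All 13 macrophage and Kupffer cell markers were called lower in HKO by edgeR, beside 3.07% of all tested genes. Their summed level was 119 to 251 CPM in HKO libraries, against 317 to 757 CPM in flox libraries. None of these markers was at 0. Among other cell types, values were positive for 0 of 8 sinusoidal endothelial, 3 of 8 stellate cell and fibroblast and 0 of 3 tested neutrophil markers. They were positive for 1 of 5 cholangiocyte, 1 of 5 tested T, NK and B cell and 5 of 5 red blood cell markers. Cdh5 (endothelial), Vim (stellate cell and fibroblast) and Igkc (B cell) were the markers called there, all lower. The part of any of these marker lists in the mitochondrial values was not tested, and in bulk liver fewer cells of a type and less RNA per cell cannot be told apart.

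Of the 37 mitochondrial rows, 29 passed the filter on low counts and were tested with the other genes. Against flox, 6 of them were called higher in HKO and 0 were called lower, at an adjusted p under 0.05. Over all 14068 tested genes, 0.917% were called higher in HKO and 3.07% lower. The 6 rows were mt-Tm, mt-Ti, mt-Tc, mt-Ty, mt-Tp and mt-Nd3, that is 5 tRNA rows and 1 mRNA row. Among them mt-Ti and mt-Tm passed the filter only through their HKO libraries, because too few flox libraries reached its limit. Log2 fold changes were positive for 27 of the 29 tested rows, and their median was 0.51, beside 0.01 over all tested genes. The negative values were -0.18 ± 0.48 (SE) for mt-Th and -0.07 ± 0.38 for mt-Ts2. All 5 HKO libraries lay above all 5 flox libraries for 3 rows, mt-Nd3, mt-Ti and mt-Tp, beside 1.91% of all tested genes. DESeq2 called 8 of the same 29 rows higher, adding mt-Nd1 and mt-Tl1, beside 1.74% of the genes it gave an adjusted p.

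**Figure D1:**
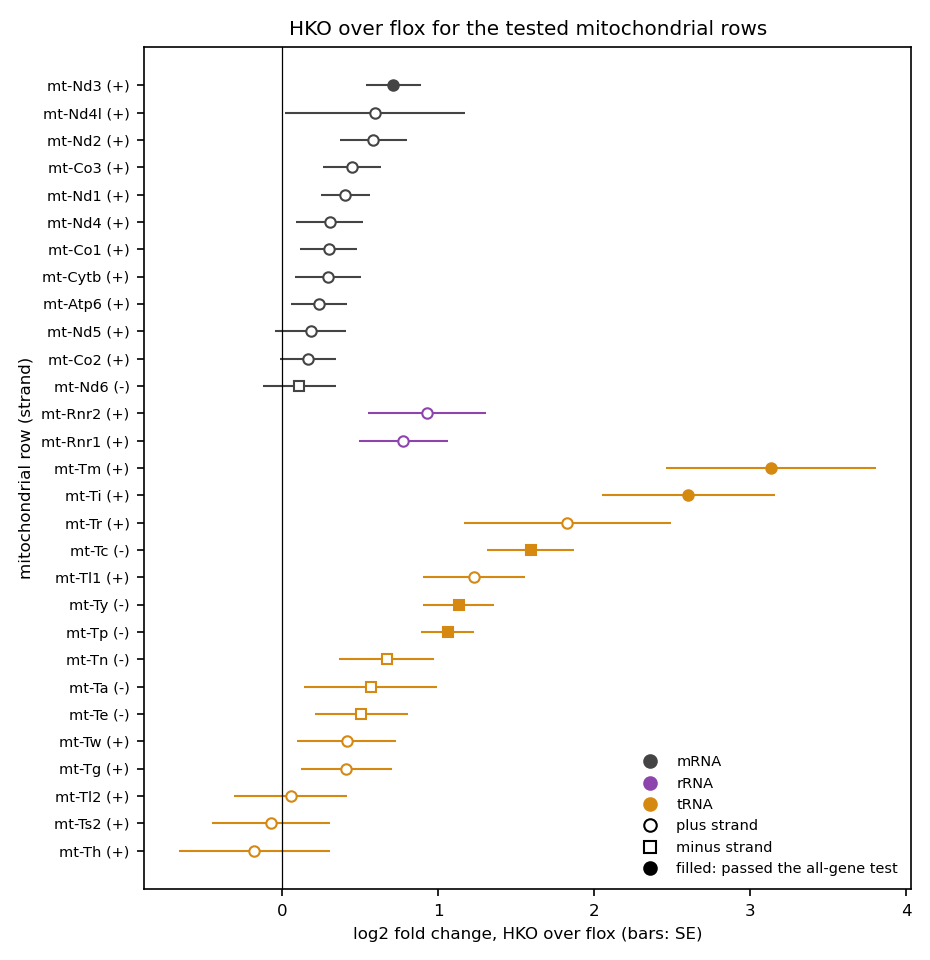
Log2 fold change of HKO over flox for the 29 tested mitochondrial rows, with the standard error as bars, grouped by RNA class (colour) and strand (circle for plus, square for minus). The 6 filled symbols passed the test over all genes, and the tRNA rows span the widest range, from -0.18 for mt-Th to 3.13 for mt-Tm.

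The 8 rows that did not pass the filter were mt-Tf, mt-Tv, mt-Tq, mt-Ts1, mt-Td, mt-Tk, mt-Tt and mt-Atp8. mt-Tf and mt-Tk, the phenylalanine and lysine tRNAs, had 0 counts in every library. mt-Tv, mt-Ts1, mt-Td and mt-Tt, which carry valine, serine, aspartate and threonine, had 1, 0, 1 and 1 counts over the HKO libraries and 5, 2, 0 and 2 over the flox libraries. At these depths no difference was detectable for those 6 tRNA rows. With no filter the log2 fold changes were -1.69 ± 1.26 for mt-Tv and -2.04 ± 1.38 for mt-Ts1. They were 1.41 ± 1.17 for mt-Td and -0.55 ± 1.30 for mt-Tt, and none of these was called. mt-Ts1, mt-Td and mt-Tk also lie in a span of the genome partly matched on chromosome 1, which is described below. mt-Tq and mt-Atp8 had more counts and are described below.

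As a share of all counts in a library, the mitochondrial rows made up 7.05, 7.14, 8.60, 6.13 and 7.90% in HKO libraries, against 8.22, 5.15, 5.97, 5.82 and 5.50% in flox libraries. The groups overlapped, because flox replicate 1 lay above 4 of the 5 HKO libraries while the other flox libraries lay below all of them. The mRNA rows held nearly all of these counts, with a mean of 6.99 ± 0.78% in HKO libraries and 5.91 ± 1.14% in flox libraries (SD, n = 5 each). The log2 difference of the mRNA share was 0.25 with all libraries and 0.36 without flox replicate 1.

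The rRNA and tRNA rows were small and more variable shares. The rRNA share was 0.238, 0.160, 0.621, 0.252 and 0.391% in HKO libraries, against 0.286, 0.128, 0.235, 0.167 and 0.158% in flox libraries. HKO replicates 3 and 5 were the highest and the remaining HKO libraries lay within the flox range. The tRNA share was 0.0416, 0.0341, 0.0573, 0.0392 and 0.0486% in HKO libraries, against 0.0361, 0.0183, 0.0232, 0.0204 and 0.0234% in flox libraries. Only flox replicate 1 reached into the HKO range here. The log2 difference of the rRNA share was 0.67, and 0.41 without HKO replicate 3. The log2 difference of the tRNA share was 0.88 with all libraries, 1.03 without flox replicate 1 and 0.69 without HKO replicates 3 and 5.

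**Figure D2:**
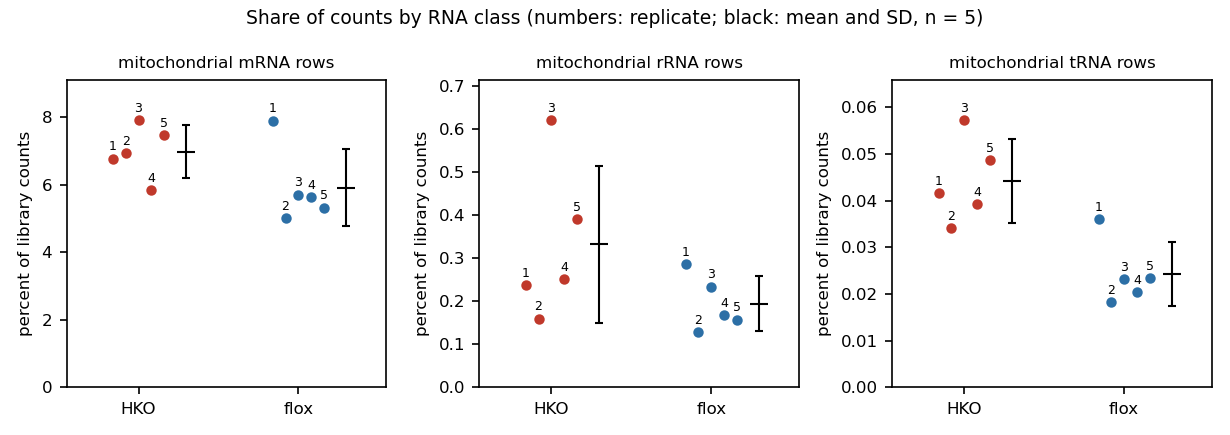
Percent of all counts in each library that fell on mitochondrial mRNA, rRNA and tRNA rows, in HKO and flox livers, with each point numbered by its replicate and the mean and SD in black. Flox replicate 1 was the highest flox library in all 3 classes, at 7.90, 0.286 and 0.0361%, and HKO replicate 3 the highest HKO library, at 7.92, 0.621 and 0.0573%.

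Counted within the mitochondrial rows alone, the tRNA rows made up 0.590, 0.478, 0.666, 0.640 and 0.615% of mitochondrial counts in HKO libraries, against 0.439, 0.356, 0.389, 0.351 and 0.425% in flox libraries. Every HKO library was above every flox library on this scale, which does not depend on how much mitochondrial RNA a library held. Most of these counts fell on the minus-strand tRNA rows, which made up 0.453 to 0.592% of mitochondrial counts in HKO libraries and 0.321 to 0.411% in flox libraries. The rRNA rows made up 2.24 to 7.23% in HKO libraries and 2.48 to 3.93% in flox libraries, so that these ranges overlapped.

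By strand, the plus-strand rows together had a log2 difference in their share of all counts of 0.28, and the minus-strand rows together 0.21. Without flox replicate 1 these values were 0.38 and 0.42, and without flox replicate 2 the minus-strand value was 0.11, so that which strand had the larger value rested on 1 library. The minus-strand sum was dominated by mt-Nd6. Apart from it, the 8 minus-strand tRNA rows had 6 tested members, of which 3 were called higher, with a median log2 fold change of 0.86. The 14 plus-strand tRNA rows had 9 tested members, of which 2 were called higher, with a median of 0.41. The difference between the strands was not tested.

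The rRNA rows come first in the genome. mt-Rnr1, the small ribosomal subunit RNA, had 990.5, 687, 2120.0, 1117 and 1437 CPM in HKO libraries, against 1069, 623, 880.4, 652 and 485 CPM in flox libraries. mt-Rnr2, the large ribosomal subunit RNA, had 1497, 869, 4273, 1621 and 2719 CPM in HKO libraries, against 1914, 717, 1301, 973 and 862 CPM in flox libraries. In both rows HKO replicates 3 and 5 were the highest of the 10 libraries. The other HKO libraries lay within the flox range, apart from replicate 4 in mt-Rnr1, just above the highest flox library. The log2 fold changes were 0.78 ± 0.29 for mt-Rnr1 and 0.93 ± 0.38 for mt-Rnr2, and neither was called. Without HKO replicate 3 they were 0.51 and 0.54, and without HKO replicates 3 and 5 they were 0.33 and 0.21. Per kilobase the 2 rRNA rows averaged 1053 and 1059 CPM over the 10 libraries, while the most abundant mRNA row, mt-Co1, averaged 13877.

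Complex I, which takes electrons from NADH, has 7 of its subunits in the mitochondrial genome. mt-Nd2, the most abundant of their rows per kilobase, had 10389, 11166, 12403, 9846 and 12064 CPM in HKO libraries, against 11697, 6171, 7704, 6448 and 5241 CPM in flox libraries. Here flox replicate 1 was within the HKO range and the other flox libraries were below it, and the log2 fold change of 0.58 ± 0.21 was not called. Without flox replicate 1 it was 0.81 and passed the test. As a share of mitochondrial counts, mt-Nd2 made up 14.7 ± 0.86% in HKO libraries and 12.3 ± 1.34% in flox libraries (SD, n = 5 each), with every HKO library above every flox library.

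mt-Nd1, which carries the site close to the quinone channel of complex I, had 7781, 8405, 7313, 6828 and 6843 CPM in HKO libraries. In flox libraries it had 7044, 5225, 5710.2, 5094 and 5015 CPM. Flox replicate 1 was above 2 of the HKO libraries and the other flox libraries were below all 5. The log2 fold change was 0.40 ± 0.16 and was not called by edgeR.

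mt-Nd3, a small complex I subunit and the least abundant of these rows per kilobase, was the 1 mRNA row called higher in HKO. It had 54.4, 40.3, 79.6, 43.5 and 52.0 CPM in HKO libraries, against 36.5, 29.2, 33.6, 30.3 and 35.2 CPM in flox libraries. The groups did not overlap, and the log2 fold change was 0.71 ± 0.18, or 1.64-fold. This call was lost in 11 of the 21 alternatives tried, among them scaling by library totals (0.60), scaling to the mitochondrial rows (0.29) and leaving out any 1 of 7 libraries, HKO replicates 1, 3 and 5 and flox replicates 2 to 5 (0.53 to 0.74). It was also lost when the row was summed with its nuclear copy, as described below. mt-Nd3 made up 0.0698 ± 0.0127% of mitochondrial counts in HKO libraries and 0.0572 ± 0.0118% in flox libraries, with overlap.

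mt-Nd6, the only mRNA row on the minus strand, had 1863, 1949.8, 1831, 1613 and 1642 CPM in HKO libraries, against 2958, 1252, 1337, 1475 and 1225 CPM in flox libraries. Flox replicate 1 was the highest of all 10 libraries and the other flox libraries were below every HKO library. The log2 fold change was 0.11 ± 0.23, with 0.43 without flox replicate 1 and 0.02 without flox replicate 2, and none of these was called. Among the remaining complex I rows, mt-Nd4 had a log2 fold change of 0.30 ± 0.21, mt-Nd5 of 0.18 ± 0.23 and mt-Nd4l of 0.59 ± 0.58.

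Complex III has a single mitochondrial subunit, cytochrome b. mt-Cytb had 11939, 12410.4, 17219, 11919 and 16911 CPM in HKO libraries, against 15903, 10996, 11897, 11217 and 7476 CPM in flox libraries, with a log2 fold change of 0.29 ± 0.21. This was 0.44 without flox replicate 1 and 0.18 without flox replicate 5. The 3 lowest HKO libraries were within the flox range.

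The catalytic core of complex IV, cytochrome c oxidase, is encoded by mt-Co1, mt-Co2 and mt-Co3. mt-Co1, the most abundant of the 37 rows, had 25128.5, 20134, 25872, 20959.8 and 26109 CPM in HKO libraries. In flox libraries it had 26178, 18300.1, 15407, 19194 and 17116 CPM, and flox replicate 1 was the highest of all 10 libraries. mt-Co3, the least abundant of the complex per kilobase, had 193, 171, 255, 137 and 210.2 CPM in HKO libraries, against 174, 151, 153, 134 and 98.7 CPM in flox libraries, with overlap. The log2 fold changes were 0.30 ± 0.18 for mt-Co1, 0.16 ± 0.18 for mt-Co2 and 0.44 ± 0.19 for mt-Co3, and none was called.

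The ATP synthase has 2 mitochondrial subunits, and the product of mt-Atp6 forms part of its proton channel. mt-Atp6 had 262, 192, 296, 213 and 211 CPM in HKO libraries, against 227, 176, 176, 267 and 153 CPM in flox libraries, with overlap. The log2 fold change was 0.23 ± 0.18, and it was 0.14 without HKO replicate 3 and 0.37 without flox replicate 4. mt-Atp8 had 9, 6, 2, 0 and 7 counts in HKO libraries, against 6, 19, 3, 9 and 9 counts in flox libraries, with overlap, and was not tested. With no filter on low counts its log2 fold change was -0.80 ± 0.63 and it was not called.

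All 12 tested mRNA rows had positive log2 fold changes, from 0.11 to 0.71 with a median of 0.30, with TMM scaling over all genes. The untested mRNA row, mt-Atp8, went the other way with no filter on low counts (-0.80 ± 0.63). Scaling by library totals moved the median of all tested genes to -0.10 and that of the mRNA rows to 0.21, and all 12 stayed positive. Scaling to the mitochondrial rows alone sets the mRNA rows near 0 by construction, because they hold 92.1 to 97.3% of those counts in HKO libraries and 95.7 to 97.2% in flox libraries, and it moved the median of all tested genes to -0.39. The sign of an mRNA row therefore says nothing on that scale. It shows each tRNA row relative to the mitochondrial mRNAs. mt-Tm (2.65), mt-Ti (2.20), mt-Tc (1.20), mt-Ty (0.74) and mt-Tp (0.68) were called higher on it. The share of all tested genes called on that scale is not given, so these calls have no share to stand beside. Of these rows, mt-Ti and mt-Tm entered the test only through their HKO libraries.

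**Figure D3:**
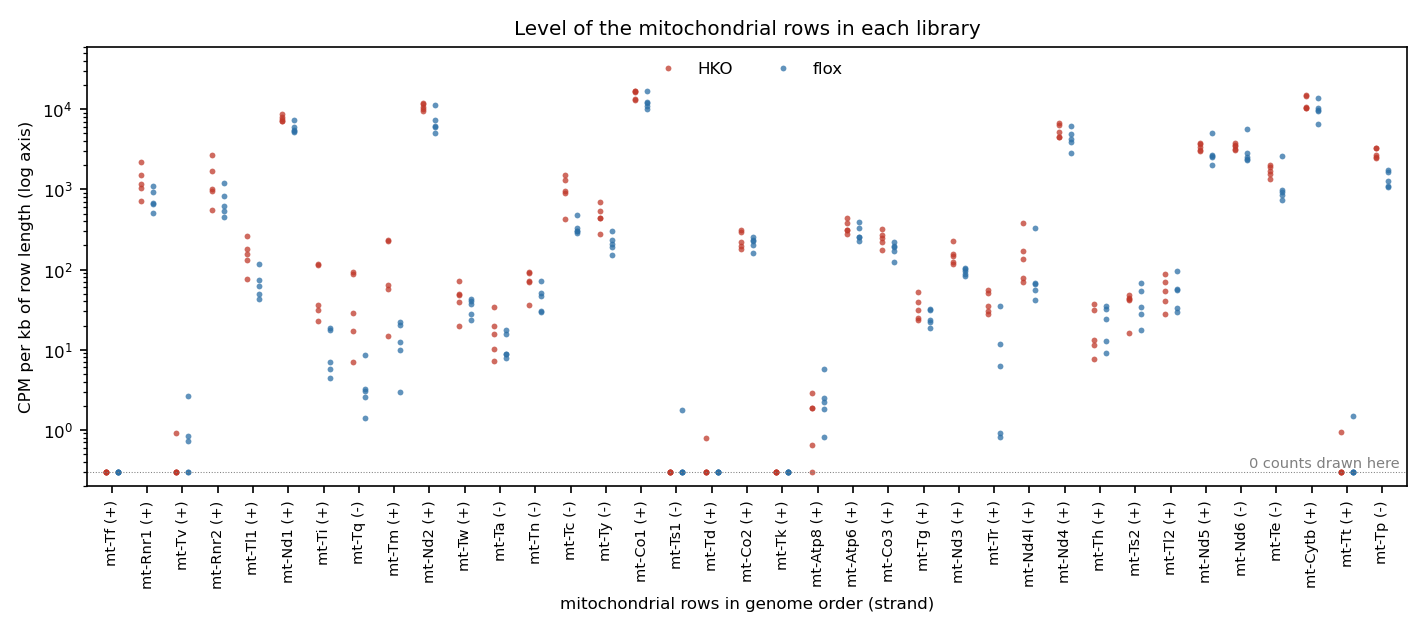
CPM per kilobase of row length on a log axis for all 37 mitochondrial rows in genome order, 1 point per library, HKO left of flox for each row, with libraries at 0 counts drawn on the dotted line. mRNA rows outside the span copied on chromosome 1 lie between 3189 and 11179 on average, whereas mt-Co2, mt-Atp6, mt-Co3, mt-Nd3 and mt-Nd4l lie far lower.

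The low level of several mRNA rows coincided with a nuclear copy of the mitochondrial genome. Within a span of 4653 bases, MT:6390-11042 on GRCm38, parts or nearly all of several mRNA genes are matched at an identity of at least 99% by 7 annotated pseudogene rows on chromosome 1. The matches cover 98.99 to 99.9% of mt-Co2, mt-Atp6, mt-Co3, mt-Nd3 and mt-Nd4l, 31.3% of mt-Co1, 63.6% of mt-Nd4 and 21.1% of mt-Atp8. No match to a tRNA row in the span was found. The search covered annotated transcripts only, so the bases between the pseudogene rows were not searched, and whether the tRNA genes are copied there was not tested. Reads from a matched part fit both places, and the sources used here do not say how the counting treated them. The 6 mRNA rows that lie wholly inside the span (mt-Co2, mt-Atp8, mt-Atp6, mt-Co3, mt-Nd3 and mt-Nd4l) averaged 2.03 to 319 CPM per kilobase, with a median of 177. The 5 rows outside it (mt-Nd1, mt-Nd2, mt-Nd5, mt-Nd6 and mt-Cytb) averaged 3189 to 11179 CPM per kilobase, with a median of 6819, which is 38.6 times as high. mt-Co1 and mt-Nd4 lie partly inside the span and averaged 13877 and 4949.9 CPM per kilobase. The 5 tRNA rows inside the span (mt-Ts1, mt-Td, mt-Tk, mt-Tg and mt-Tr) averaged 0 to 29.9 CPM per kilobase, with a median of 0.18. The 17 tRNA rows outside it averaged 0 to 2113, with a median of 40.2.

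The pseudogene rows had levels of the same order as the mitochondrial rows they match almost whole. Gm28661, the copy of mt-Co2, averaged 179.5 CPM per kilobase over the 10 libraries, beside 228 for mt-Co2. Gm28437, the copy of mt-Co3, averaged 218 beside 214 for mt-Co3, and Gm10925, the copy of mt-Atp6, averaged 394 beside 319 for mt-Atp6. The levels of mt-Co2, mt-Atp6, mt-Co3, mt-Nd3 and mt-Nd4l in this table are therefore uncertain as measures of the mitochondrial transcripts, whichever group is considered.

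**Figure D4:**
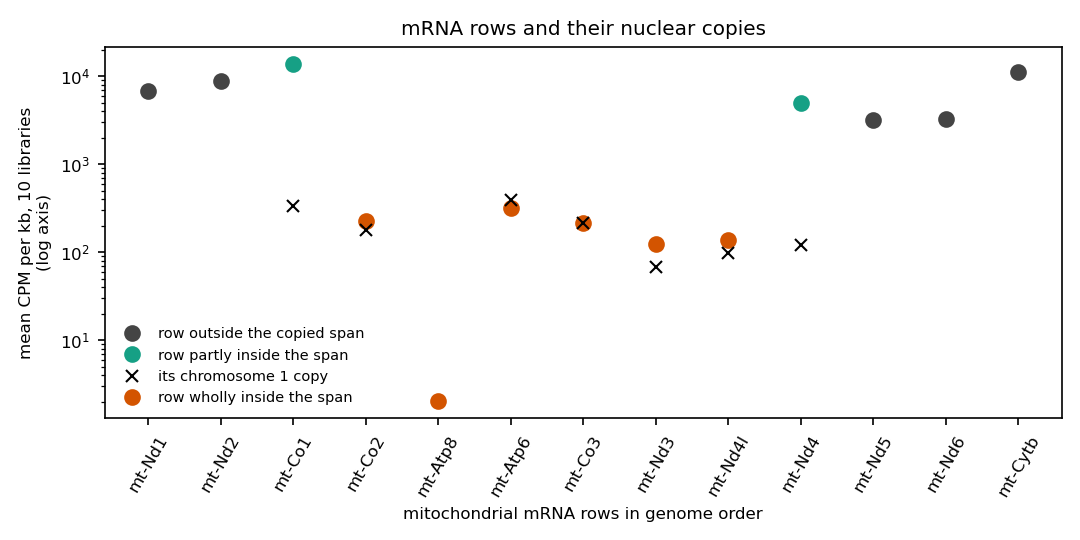
Mean CPM per kilobase over the 10 libraries, on a log axis, for the 13 mitochondrial mRNA rows (circles, coloured by whether the row lies outside, partly inside or wholly inside the span that holds the matches to chromosome 1) and for the 7 pseudogene copies (crosses). Rows wholly inside the span have a median of 177 and rows outside it a median of 6819.

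The start of mt-Nd3 and of its copy Gm28438 shows how alike the sequences are, which is why the row is printed beside its copy. Over 345 aligned bases they differ at 1 position, T3C, counted from the first base of mt-Nd3, with the mitochondrial base given first. Both stretches below are from GENCODE M21 on GRCm38, 5′ to 3′, with the differing base in capitals. The mitochondrial stretch is MT:9459-9501 on the plus strand and the copy lies on the minus strand of chromosome 1.
mt-Nd3: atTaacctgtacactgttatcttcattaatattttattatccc
Gm28438: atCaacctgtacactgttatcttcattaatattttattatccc
Gm28438 had 25.04 ± 7.80 CPM in HKO libraries and 22.3 ± 11.8 CPM in flox libraries (SD, n = 5 each). Per kilobase it averaged 68.6 CPM over the 10 libraries, beside 125 for mt-Nd3. Summed with it, mt-Nd3 had 75.7, 57.4, 117.3, 66.3 and 78.4 CPM in HKO libraries, against 75.8, 51.5, 60.6, 43.9 and 44.4 CPM in flox libraries. The groups then overlapped, and the log2 fold change of the sum was 0.52 ± 0.20 and was not called. None of the 7 summed pairs was called.

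The tRNA rows are short and many of them touch an abundant mRNA or rRNA. Of the 22 rows, 16 lie within 5 bases of an mRNA or rRNA row and 3 overlap one, mt-Ti with mt-Nd1 by 2 bases, mt-Tw with mt-Nd2 by 2 bases and mt-Ts1 with mt-Co1 by 3 bases. mt-Ti also overlaps mt-Tq by 3 bases. The sources used here do not say whether the counting used strand. For a minus-strand tRNA row such as mt-Tp, therefore, reads from the tRNA and reads from the opposite strand cannot be told apart. Reads that run from a tRNA into its neighbour cannot be told apart from reads of the mature tRNA either.

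Rows that border an abundant mRNA ranged from almost no counts to the highest levels. mt-Te, which borders mt-Nd6, and mt-Ty, 1 base from mt-Co1, were among the highest tRNA rows. mt-Tt, which borders mt-Cytb, and mt-Ts1, which overlaps mt-Co1, had almost none. mt-Ts1 lies inside the span partly matched on chromosome 1, and the cause of its low count was not tested. The highest tRNA rows per kilobase were mt-Tp at 2113 CPM, mt-Te at 1468, mt-Tc at 681 and mt-Ty at 347, averaged over the 10 libraries, and all of them are on the minus strand.

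mt-Tp, the proline tRNA, was higher in HKO and had the most counts of any tRNA row. It had 182, 169, 221, 165 and 219 CPM in HKO libraries, against 117, 73.9, 111, 72.1 and 84.9 CPM in flox libraries. The groups did not overlap. The log2 fold change was 1.06 ± 0.17, or 2.09-fold, and it was called in all 21 alternatives tried. Per 1000 counts of mt-Cytb, the nearest mRNA row, which lies 67 bases away on the other strand, mt-Tp had 12.8 to 15.3 counts in HKO libraries and 6.43 to 11.4 in flox libraries. As a share of mitochondrial counts it made up 0.2499 ± 0.0066% in HKO libraries and 0.156 ± 0.0319% in flox libraries (SD, n = 5 each). On this scale the HKO libraries lay close together and every flox library lay below them.

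mt-Tc and mt-Ty, the cysteine and tyrosine tRNAs, belong to a cluster of tRNA genes between mt-Nd2 and mt-Co1. mt-Tc was higher in HKO, with 62.8, 28.3, 101, 59.3 and 86.0 CPM in HKO libraries, against 31.6, 21.98, 19.7, 19.9 and 18.8 CPM in flox libraries. Only flox replicate 1 was above the lowest HKO library, replicate 2. The log2 fold change was 1.59 ± 0.28, or 3.01-fold, and was called in all 21 alternatives. mt-Ty was higher in HKO, with 29.5, 18.7, 46.1, 29.2 and 35.9 CPM in HKO libraries, against 20.1, 12.7, 10.3, 15.7 and 14.1 CPM in flox libraries. The same libraries overlapped, flox replicate 1 and HKO replicate 2. The log2 fold change was 1.13 ± 0.23, or 2.19-fold.

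The neighbouring mt-Co1 was not called, and the tRNA rows were also set against it. Per 1000 counts of mt-Co1, mt-Tc had 1.41 to 3.90 counts in HKO libraries and 1.04 to 1.28 in flox libraries. mt-Ty had 0.930 to 1.78 in HKO libraries and 0.666 to 0.824 in flox libraries. Neither ratio overlapped between the groups. The other members of the cluster were not called. mt-Tn, the asparagine tRNA, had a log2 fold change of 0.67 ± 0.30, mt-Ta, the alanine tRNA, of 0.57 ± 0.43 and mt-Tw, the tryptophan tRNA on the plus strand, of 0.41 ± 0.32.

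The largest fold changes belonged to the tRNA rows between mt-Nd1 and mt-Nd2, at far lower counts. mt-Ti, the isoleucine tRNA, was higher in HKO, with 2.46, 1.58, 8.19, 2.19 and 7.94 CPM in HKO libraries, against 1.28, 0.49, 1.20, 0.40 and 0.30 CPM in flox libraries. This was 365 counts over the HKO libraries and 64 over the flox libraries, with no overlap, and the log2 fold change was 2.60 ± 0.56. mt-Tm, the methionine tRNA, was higher in HKO, with 4.47, 1.01, 15.6, 3.92 and 16.04 CPM in HKO libraries, against 0.86, 1.52, 1.42, 0.69 and 0.20 CPM in flox libraries. HKO replicate 2 was within the flox range, and the log2 fold change was 3.13 ± 0.67. Both mt-Ti and mt-Tm entered the test through the HKO libraries, where they were high, since too few flox libraries reached the limit of the filter.

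mt-Tq, the glutamine tRNA on the opposite strand between them, did not pass the filter on low counts. It had 31, 8, 101, 19 and 112 counts in HKO libraries, against 10, 3, 4, 4 and 2 counts in flox libraries. Only HKO replicate 2 was below a flox library. With no filter its log2 fold change was 3.62 ± 0.58 and passed the test. It was also called by DESeq2, and it passed both the filter and the test when any 1 flox library or HKO replicate 2 was left out. Leaving out such a library lowers the number of libraries that the filter asks for. In those settings the row entered the test only through the HKO libraries where it was high, so these calls are not separate support for a difference.

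In all 3 of these rows HKO replicates 3 and 5 were the highest libraries, as they were for mt-Rnr1 and mt-Rnr2, and HKO replicate 2 was the lowest HKO library in each. Without replicates 3 and 5 the log2 fold changes were 1.498 for mt-Ti and 1.75 for mt-Tm and neither was called, nor was mt-Ty at 0.83 or mt-Nd3 at 0.49. In that setting mt-Tc (1.17) and mt-Tp (0.91) were the 2 mitochondrial rows called higher. Per 1000 counts of mt-Nd1, mt-Ti had 0.187 to 1.16 counts in HKO libraries and 0.060 to 0.210 in flox libraries, and per 1000 counts of mt-Nd2, mt-Tm had 0.090 to 1.33 in HKO libraries and 0.038 to 0.247 in flox libraries. Both ratios overlapped between the groups.

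**Figure D5:**
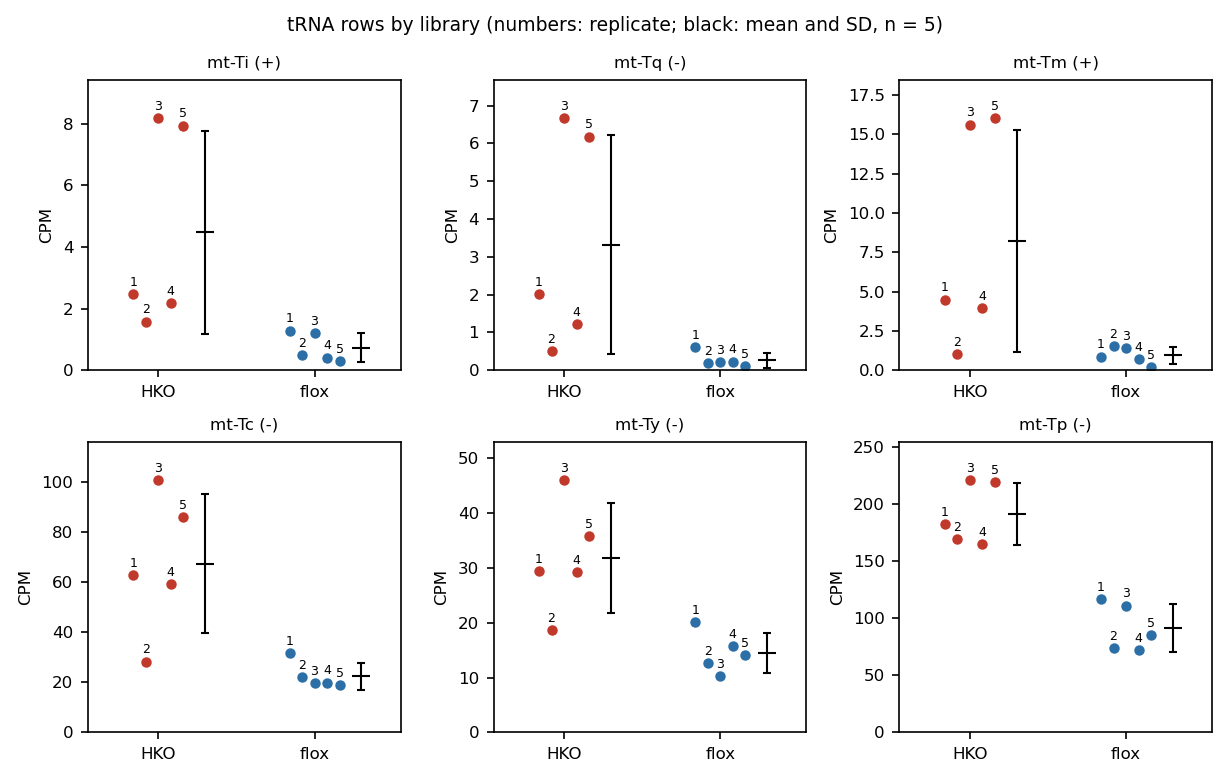
CPM in each library for the 6 tRNA rows whose sequences are printed, HKO left of flox, with each point numbered by its replicate and the mean and SD of 5 libraries in black. HKO replicates 3 and 5 are the highest libraries in every panel, and the groups are separate for mt-Ti and mt-Tp.

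The other tested tRNA rows were not called by edgeR with TMM scaling and all libraries. mt-Tl1, a leucine tRNA that lies directly after mt-Rnr2, had 5.80 to 19.9 CPM in HKO libraries and 3.23 to 8.76 CPM in flox libraries, with a log2 fold change of 1.23 ± 0.33. It was called higher by DESeq2, with scaling to the nuclear rows, with no filter, with robust dispersion, with the replicate block, and without HKO replicate 2 or flox replicate 5. Per 1000 counts of mt-Rnr2 it had 4.65 to 7.14 counts in HKO libraries and 2.85 to 10.2 in flox libraries. mt-Tr, the arginine tRNA, had 1.89 to 3.73 CPM in HKO libraries and 0.05 to 2.37 CPM in flox libraries, and a log2 fold change of 1.83 ± 0.66. It was called only without flox replicate 5, the highest flox library, among the alternatives tried. Its flox counts were 1, 7, 1, 14 and 47, so that too few flox libraries reached the limit of the filter. Like mt-Ti and mt-Tm, mt-Tr entered the test through the HKO libraries where it was high. Its call is therefore not separate support for a difference.

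mt-Te, the glutamate tRNA next to mt-Nd6 on the minus strand, had 94.3 to 140.2 CPM in HKO libraries and 50.8 to 178.2 CPM in flox libraries. The highest of the 10 was flox replicate 1, and the log2 fold change was 0.51 ± 0.30. Without that library mt-Te passed the test. The plus-strand rows mt-Tg (0.41 ± 0.29), mt-Tl2 (0.05 ± 0.36), mt-Ts2 and mt-Th, which carry glycine, leucine, serine and histidine, were the remaining tested rows.

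The mitochondrial genome depends on nuclear genes for its transcription, RNA processing and translation, and these were taken as 11 lists with 255 tested genes, including the nuclear subunits of the respiratory chain. Of the 255 genes, 0 were called in either direction by edgeR, beside 3.99% of all tested genes. At an unadjusted p under 0.05 there were 13, or 5.10%, beside 16.9% of all tested genes, and DESeq2 called 3 (Gatb, Mettl15 and Top1mt), beside 6.14% of the genes it gave an adjusted p. Their median log2 fold change was 0.07 with 169 positive, and -0.04 with 104 positive when scaled by library totals.

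Among them, 0 of 21 tested genes of mitochondrial RNA processing and stability were called, with a median of 0.11. All 21 values were positive with TMM scaling and 11 with library totals. Trmt10c, a subunit of the enzyme that cuts the 5′ ends of mitochondrial tRNAs, had 20.6 ± 5.996 CPM in HKO libraries and 17.9 ± 4.83 CPM in flox libraries, a log2 fold change of 0.21 ± 0.22, with 0.04 without HKO replicate 4 and 0.37 without flox replicate 1. Of the 20 genes of mitochondrial DNA transcription and replication 0 were called. Polrmt, the mitochondrial RNA polymerase, had 25.5 ± 1.10 CPM in HKO libraries and 22.05 ± 2.01 CPM in flox libraries, a log2 fold change of 0.21 ± 0.11.

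The lists of tRNA and rRNA modification (21 tested genes), aminoacyl-tRNA synthesis (21), translation factors (13) and mitochondrial ribosomal proteins (79) had medians of 0.04, -0.08, -0.08 and 0.06 with 0 called in each. Trmu, which modifies mitochondrial tRNAs, Aars2, the alanine tRNA synthetase, and Mrpl1, a ribosomal protein, had log2 fold changes of 0.04 ± 0.16, 0.07 ± 0.14 and 0.08 ± 0.14, all of which turned slightly negative when scaled by library totals. Mtif2, a translation initiation factor, had 0.33 ± 0.13. Of the 10 biogenesis regulators 0 were called. Their first member Ppargc1a, a coactivator of mitochondrial genes, had 14.8 ± 4.55 CPM in HKO libraries and 15.5 ± 6.68 CPM in flox libraries.

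The nuclear subunits of the complexes that the mitochondrial mRNAs belong to did not pass the test either. There were 38 tested for complex I, 9 for complex III, 11 for complex IV and 15 for the ATP synthase, with medians of 0.10, 0.07, 0.15 and 0.07. Their examples were Ndufa1 (0.42 ± 0.22), Cyc1 (0.00 ± 0.13), Cox4i1 (0.10 ± 0.17) and Atp5a1 (-0.16 ± 0.17, and -0.05 without flox replicate 2). Beside them, the 12 tested mitochondrial mRNA rows had a median of 0.30, and the difference between the sets was not tested.

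Because tRNAs and rRNAs of the organelle carry short or no poly(A) tails, nuclear RNAs that lack such tails were read as a sign of RNA quality or library selection. The rows were picked by name patterns for small RNAs and histones, and members that do carry a tail were not excluded. Of 234 rows picked in this way 130 were at 0 in every library and 13 were tested, with 0 called by edgeR and 0 by DESeq2, and 2 at an unadjusted p under 0.05. Their summed level was 279 to 329 CPM in HKO libraries and 234 to 320.4 CPM in flox libraries. This sum may include tailed RNAs, so it does not show whether RNAs without tails were recovered alike in the groups. Rn7sk, a nuclear RNA of this kind, had 0.85 ± 0.93 CPM in HKO libraries and 0.84 ± 0.35 CPM in flox libraries, and was highest in HKO replicate 3. Rmrp and Rpph1 had 0 counts.

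Across the 10 libraries, the nuclear rows whose log2 CPM followed the summed mitochondrial mRNA rows most closely were Ccndbp1 (Pearson r = 0.94), N4bp2 (0.94), Foxa2 (0.94), Gm13341 (0.93) and Klf9 (0.92). Gm13341 is an annotated pseudogene. These values describe libraries that share their depth and scaling, and they include the difference between the genotypes.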

How the data were processed

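The authors deposited raw read counts per gene for the 10 libraries, whole numbers not divided by library size. Per the labels' protocols, the VAHTS Universal V6 kit was used on total RNA. The submitters' processing notes name mm10 and DESeq2. Not given in the sources used here are the aligner, the counter, the annotation, the use of strand and the treatment of reads with several matches. All 37 mitochondrial rows have the same place in GENCODE M21 on GRCm38. Coordinates of nuclear genes are not printed, because the build behind them is uncertain.

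HKO was compared with flox in edgeR 4.0.16 (R 4.3.3) by its quasi-likelihood F-test (two-sided), with TMM scaling, the filterByExpr filter by group and Benjamini-Hochberg adjustment over the 14068 tested genes. The threshold was an adjusted p of 0.05. A row called higher or lower passed it. Levels are TMM-scaled CPM, ± is the SD over libraries for levels and the standard error for log2 fold changes, which was calculated back from the F-test. Levels of different genes are compared per kilobase. DESeq2 1.42.0 was run as an alternative. P-values measure the spread between these libraries, which may be technical. No pair within a group agreed within sampling noise (chi-square per degree of freedom at least 24.6).

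Nuclear copies were found with blastn 2.17.0 between GENCODE M21 transcripts, with at least 99% identity over at least 100 bases. Sequences were read from the same transcripts. The members and gene lists were chosen with earlier results of these data known. Every mitochondrial row is accounted for. Values in every library are given for the 5 rows named with the group, the rRNA rows, mt-Nd6, the most and least abundant mRNA row of each complex and every called row. From each nuclear list the first tested member is named where none was called. The alternatives were other scalings, other filters, robust dispersion, a replicate block and each library left out. Summing rows with their copies and leaving out HKO replicates 3 and 5, which had the highest rRNA share, were added after seeing the data. Intervals from counts cover counting error only.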

Additional observations from a re-analysis of the deposited data

Results flagged for a closer look

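Within each group of 5 libraries, a library was marked when its gap to the nearest other library exceeded 0.71 of the group's range (Dixon's test at 95%). Chance marks about 1 in 20 groups, and 12 of the 96 groups examined were marked. Flox replicate 1 accounts for 11 of them. It stood above the other 4 flox libraries for mt-Nd5 (9264 CPM, others at most 4900.3), mt-Nd6 (2958, others at most 1475), mt-Nd4l (96.9, others at most 19.9), mt-Te (178.2, others at most 67.2) and mt-Tc (31.6, others at most 21.98). The same library was marked for the share of all counts on all mitochondrial rows (8.22%), mRNA rows (7.90%), tRNA rows (0.0361%), plus-strand rows (7.90%) and minus-strand rows (0.318%). It was also the highest flox library for the nuclear gene Ppargc1a, at 27.4 CPM against 11.4 to 13.7 in the others. These measures share reads and libraries, so they are not independent of each other. The remaining mark was mt-Ts2 in HKO replicate 2, at 0.945 CPM against 2.46 to 2.81 in the other HKO libraries.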

How the results depend on the processing

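The number of all genes called was 561 with edgeR, 289 to 673 when 1 library was left out and 1112 with DESeq2. Mitochondrial rows called higher numbered 6, from 5 to 9 when 1 library was left out, and 2 without HKO replicates 3 and 5. No mitochondrial row was called lower in any setting. The nuclear lists had 0 called genes, 1 with library totals, 1 with no filter, 0 to 1 when 1 library was left out and 3 with DESeq2. Scaling to the mitochondrial rows, which centres the mRNA rows by construction, left 5 of 12 mRNA rows positive, with negative values among the named rows for mt-Nd6 (-0.19), mt-Atp6 (-0.15), mt-Cytb (-0.071) and mt-Co1 (-0.071). With library totals they did so for Trmu (-0.075), Aars2 (-0.034), Mrpl1 (-0.017), Cyc1 (-0.096) and Cox4i1 (-0.0051), and for Cyc1 also with a minimum of 1 CPM (-0.0020). Rn7sk turned positive with relative log expression (0.0049), nuclear scaling (0.0077), no filter (0.0049) and DESeq2 (0.014). With 1 library left out, Trmu ranged from -0.015 to 0.11, Ppargc1a from -0.18 to 0.25, Cyc1 from -0.048 to 0.083 and Rn7sk from -0.90 to 0.24. The cause was not tested. mt-Tm was also lost with the replicate block, in which 448 genes and 6 mitochondrial rows were called. Same-numbered libraries did not clearly deviate together (r from -0.12 to 0.24, and 1 of 5 HKO libraries matched its own number best). These values gave no sign of pairing by number, but weak correlations cannot exclude a pairing. The lowest tRNA rows are limited by depth, since 3 counts are worth up to 0.195 CPM.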
